A study of Mus musculus with 7 samples.

Results

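The Slc25 family of mitochondrial carriers was described in 7 mouse tissues: liver, kidney, visceral adipose tissue (VAT), subcutaneous adipose tissue (SCAT), interscapular brown adipose tissue (BAT), cortex and skeletal muscle. Members were the gene names of the form Slc25a followed by a number in the deposited expression table, which gave 47 of 50226 names. The tissues came from wild-type C57BL/6 mice (C57BL/6N in the paper), 36 weeks old, on the diet labelled NCD, and no group carried a transgene, a deletion or a treatment. Each tissue was 1 library of rRNA-depleted total RNA, and whether a library held 1 animal or a pool is not given in the sources used here. With 1 library per tissue there was no spread between replicates, so no difference below was tested, whether neighbouring tissues in an order differ beyond such a spread cannot be told, and all values are descriptions of these libraries. Levels are FPKM, fragments per kilobase of transcript, scaled to library size, a unit that allows genes of different length to be set side by side. The table gave no fragment counts, so depth is unknown and no interval could be given for a single level.

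Carriers of this family sit mostly in the inner mitochondrial membrane and move nucleotides, phosphate, carboxylates, amino acids, cofactors and metal ions between cytosol and matrix. Many substrates are served by several isoforms encoded by separate genes, and such isoforms are known for differing between tissues. The uncoupling proteins belong to the same family under other names.

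Of the 47 members, 42 reached 1 FPKM in at least 1 tissue. The other 5 stayed below it in all 7 libraries: Slc25a29, a carrier of basic amino acids, at up to 0.963 FPKM (cortex), Slc25a41 at up to 0.120 FPKM, Slc25a43 at up to 0.109 FPKM, Slc25a31, the germ cell ADP/ATP carrier, at up to 0.0281 FPKM, and Slc25a2, an ornithine carrier, at up to 0.0235 FPKM. At least 1 FPKM in all 7 tissues was found for 28 of the 42 members (66.7%), beside 52.5% of the 14928 protein-coding names with 1 FPKM in any tissue, which serve as the background throughout. Between the highest and the lowest tissue the members spanned a median of 3.90 on the log2(FPKM + 0.1) scale, beside 2.99 for the 14898 background names with a value in all 7 tissues. Between the highest and the second tissue the median gap was 0.70 for members and 0.68 for those background names.

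A gene was called enriched in a tissue when it had at least 1 FPKM there and stood at least 4-fold, 2 on the log2(FPKM + 0.1) scale, above each of the 6 others. This was met by 7 members, 16.7% of the 42, beside 21.4% of the background. They included Slc25a20 and Slc25a51 in BAT, Slc25a4 and Slc25a12 in skeletal muscle, Slc25a47 in liver and Slc25a53 in cortex. By tissue, 3 members in BAT stood beside a background of 0.757%, 2 in skeletal muscle beside 3.38%, 1 in liver beside 3.39% and 1 in cortex beside 8.21%. Kidney had 0 members beside 2.49%, VAT 0 beside 1.21% and SCAT 0 beside 1.93%. Closest to the threshold from inside were Slc25a20 (2.02 on the log2 scale) and Slc25a51 (2.25), and from outside Slc25a14 in cortex (1.83) and Slc25a13 in liver (1.82). The mirrored rule, at least 4-fold below each of 6 tissues that all reached 1 FPKM, was met by 3 members (7.14%, background 2.4%): Slc25a4 in liver, Slc25a36 in liver and Slc25a20 in cortex.

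**Figure D1:**
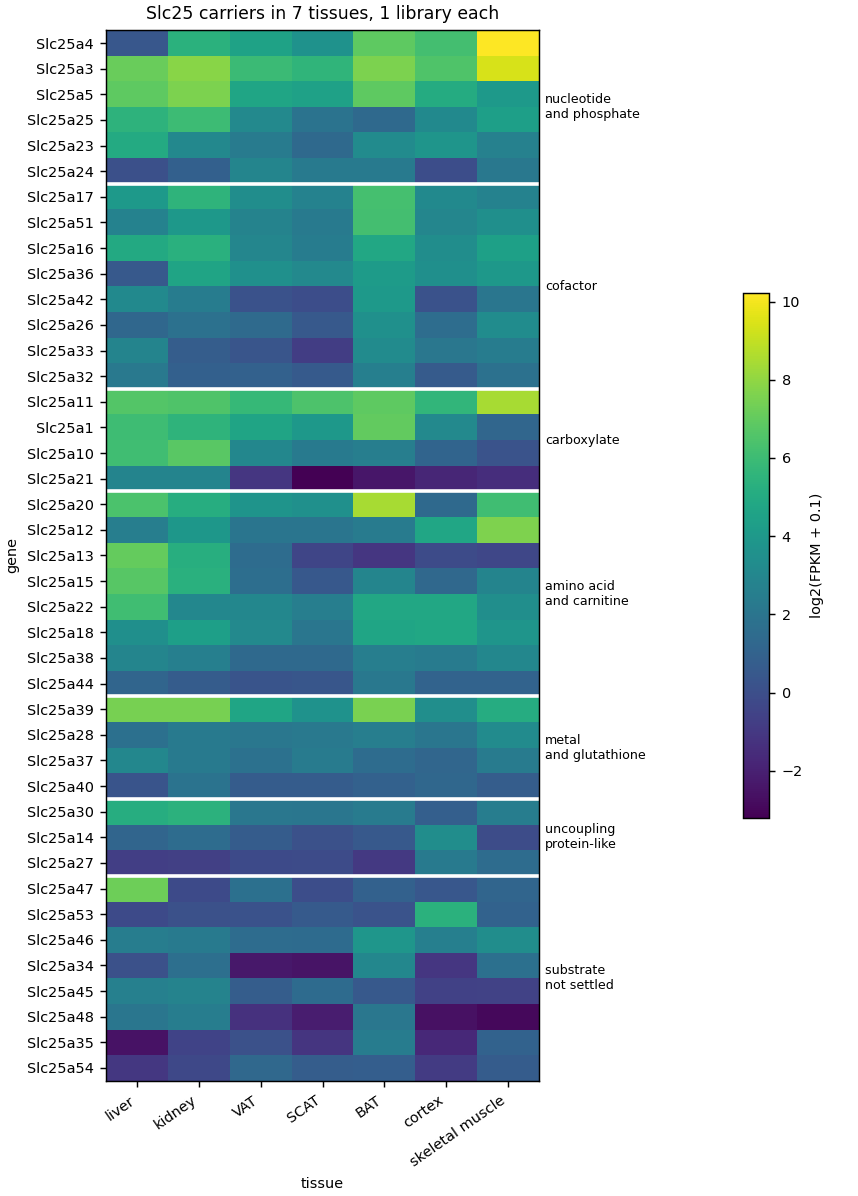
Level of 41 members that reached 1 FPKM, as log2(FPKM + 0.1) by colour, in 7 tissues (columns, 1 library each), with genes (rows) grouped by substrate and ordered within each group by highest level. Slc25a4 is highest in skeletal muscle (1196 FPKM) and lowest in liver (1.26 FPKM), and 6 of the 8 cofactor carriers plotted are highest in BAT. The cofactor group includes the pyrimidine nucleotide carriers.

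The tissue in which a member was highest was BAT for 14 of 42 (33.3%, background 15.1%), kidney for 9 (21.4%, background 10.6%), liver for 7 (16.7%, background 15.5%) and skeletal muscle for 6 (14.3%, background 24.0%). It was cortex for 4 (9.52%, background 21.1%), VAT for 2 (4.76%, background 5.35%) and SCAT for 0 (background 8.37%). The lowest tissue was SCAT for 15 members (35.7%, background 22.1%). Summed over all 47 members, FPKM ran from 307 in SCAT and 366 in VAT through 518 in cortex, 1360 in kidney, 1475 in liver and 1735 in BAT to 2776 in skeletal muscle. In skeletal muscle Slc25a4 alone made up 43.1% of that sum. The leading member was the phosphate carrier Slc25a3 in kidney, VAT and cortex, Slc25a39 in liver, Slc25a11 in SCAT, Slc25a20 in BAT and Slc25a4 in skeletal muscle. The locus of Slc25a11 carries several names, and the next member in SCAT was Slc25a3 (47.5 FPKM). In bulk tissue, fewer cells of a type and less RNA per cell cannot be told apart.

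The libraries carried markers of their labels, with the exceptions given here. Snap25, Neurod6 and Gfap were enriched in cortex and Umod, Slc34a1 and Aqp2 in kidney. Apoa1 and Ttr were enriched in liver, where the table held no usable value for Alb (253 FPKM in VAT). Ucp1 and Cidea were enriched in BAT, and Ckm in skeletal muscle. Of the other muscle markers, Acta1 had no usable value, and Myh4 had none in skeletal muscle and was called enriched in BAT (87.5 FPKM). Of the white fat markers, Adipoq and Lep were highest in VAT, and Plin1 was highest and enriched in BAT (413 FPKM, beside 102 in VAT and 74.8 in SCAT). The VAT and SCAT libraries also held genes of other cell types: the epididymal genes Crisp1, Lcn5 and Adam7 were all enriched in VAT (summed 2639 FPKM, at most 1.99 FPKM elsewhere), and in SCAT 3 of 4 pancreatic and 3 of 3 lymphocyte genes were enriched (summed 92.9 FPKM and 89.5 FPKM, at most 8.82 FPKM and 2.80 FPKM elsewhere). Their part in the carrier levels was not tested. No member was enriched in VAT or SCAT.

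Sequence before the start site is shown for 5 members that the results turn on: the isoforms that led their groups in liver (Slc25a5 and Slc25a13), the muscle isoform beside the latter (Slc25a12), a member high in liver and kidney (Slc25a30) and the liver gene Slc25a47. Among the enriched members, their isoforms and the liver and kidney members, these had a single RefSeq start and 120 bases before it that overlapped no annotated exon. Sequences are from RefSeq promoter windows of GRCm38.p6, 5′ to 3′ on the gene's own strand, and capitals mark CCAAT or GGGCGG on either strand. They lie at chrX:36795477-36795596 (plus strand) for Slc25a5, chr2:71367756-71367875 (minus) for Slc25a12, chr6:6217174-6217293 (minus) for Slc25a13, chr14:75787038-75787157 (minus) for Slc25a30 and chr12:108851009-108851128 (plus) for Slc25a47. The last lies inside the GENCODE span of the gene, which begins further upstream with non-coding transcripts, and directly before the start of a protein-coding transcript.
Slc25a5: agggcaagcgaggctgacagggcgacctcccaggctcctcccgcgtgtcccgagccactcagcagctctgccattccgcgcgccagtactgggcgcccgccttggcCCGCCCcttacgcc
Slc25a12: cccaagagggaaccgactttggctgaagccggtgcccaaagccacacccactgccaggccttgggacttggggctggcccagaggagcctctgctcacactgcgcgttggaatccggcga
Slc25a13: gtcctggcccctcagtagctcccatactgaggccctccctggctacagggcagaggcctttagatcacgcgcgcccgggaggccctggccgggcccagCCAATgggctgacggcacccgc
Slc25a30: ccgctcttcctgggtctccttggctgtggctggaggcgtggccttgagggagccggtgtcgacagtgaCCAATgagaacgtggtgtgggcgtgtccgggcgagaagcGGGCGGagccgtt
Slc25a47: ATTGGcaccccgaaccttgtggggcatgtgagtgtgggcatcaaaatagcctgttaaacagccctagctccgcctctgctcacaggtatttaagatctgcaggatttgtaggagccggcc

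In all, 36 of the 47 members had a RefSeq window, 46 windows together, and 5 motifs were searched on both strands in the 250 bases before the start. Member windows were taken without a minimum FPKM, whereas background names had to reach 1 FPKM in any tissue. GGGCGG, the core of a GC box, was present in 32 of the 46 windows (69.6%), beside 52.4% of the 14738 windows of background names and 32.7% of all 32851 windows, which include genes of any biotype and level. CCAAT was present in 21 (45.7%, background names 34.6%, all windows 33.8%). TATAA, the core of a TATA box, was present in 3 (6.52%, background names 14.2%, all windows 22.8%). AAGGTCA, the letters bound by estrogen-related receptors, was present in 1 (2.17%, background names 3.24%, all windows 4.08%). CGCATGCG, part of the motif of nuclear respiratory factor 1, was present in 0 (background names 2.61%, all windows 1.55%). Windows of 1 gene can share sequence, and no test was made. A match describes letters in a window and not a bound site.

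The ADP/ATP carriers exchange cytosolic ADP for matrix ATP, and their 2 somatic genes differed most in liver and skeletal muscle. Slc25a4 (chromosome 8, 46206797 to 46211284, GRCm38) was at 1.26 FPKM in liver, 41.3 in kidney, 22.8 in VAT, 12.3 in SCAT, 118 in BAT, 72.6 in cortex and 1196 in skeletal muscle. Skeletal muscle was 10.1-fold above the next tissue, BAT, and liver was the only library below 10 FPKM. Slc25a5, the isoform known from proliferating cells (chromosome X, 36795651 to 36798807), was at 119 FPKM in liver, 193 in kidney, 25.2 in VAT, 21.8 in SCAT, 119 in BAT, 32.6 in cortex and 16.4 in skeletal muscle. Its highest library was kidney and its lowest skeletal muscle, 11.7-fold apart. As a share of the summed FPKM of the ADP/ATP carriers, Slc25a4 was 1.06% in liver, 17.6% in kidney, 36.0% in SCAT, 47.5% in VAT, 49.8% in BAT, 69.0% in cortex and 98.6% in skeletal muscle. The sum itself was 34.0 FPKM in SCAT, 48.1 in VAT, 105 in cortex, 119.9 in liver, 234 in kidney, 237 in BAT and 1212 in skeletal muscle, so that liver and kidney held their carrier RNA mostly as Slc25a5. Slc25a31 was listed at 0 in 5 libraries.

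Slc25a3, which brings phosphate into the matrix for ATP synthesis, was at 141 FPKM in liver, 229 in kidney, 60.9 in VAT, 47.5 in SCAT, 192 in BAT, 92.0 in cortex and 691 in skeletal muscle. It was high in all 7 libraries, and skeletal muscle was 3.02-fold above kidney. Among the calcium-regulated ATP-Mg/phosphate carriers, which set the adenine nucleotide pool of the matrix, the leading gene changed between tissues. Slc25a25 led in kidney (62.9 FPKM, 86.3% of the group), in liver (45.0 FPKM, 57.7%), in skeletal muscle (20.8 FPKM, 65.7%) and in VAT (8.49 FPKM, 40.6%). Slc25a23 led in BAT (9.46 FPKM, 56.0%) and cortex (13.9 FPKM, 58.4%), although its highest level was in liver (32.0 FPKM). Slc25a24 led in SCAT (4.65 FPKM, 43.1%) and was highest in VAT (7.34 FPKM). These levels come from a locus read as opposite to the annotated strand. The annotated one, shared with Slc25a54, was at 1.60 FPKM in SCAT, below Slc25a25 (3.59) and Slc25a23 (2.48), so that there the leading gene depends on the locus.

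**Figure D2:**
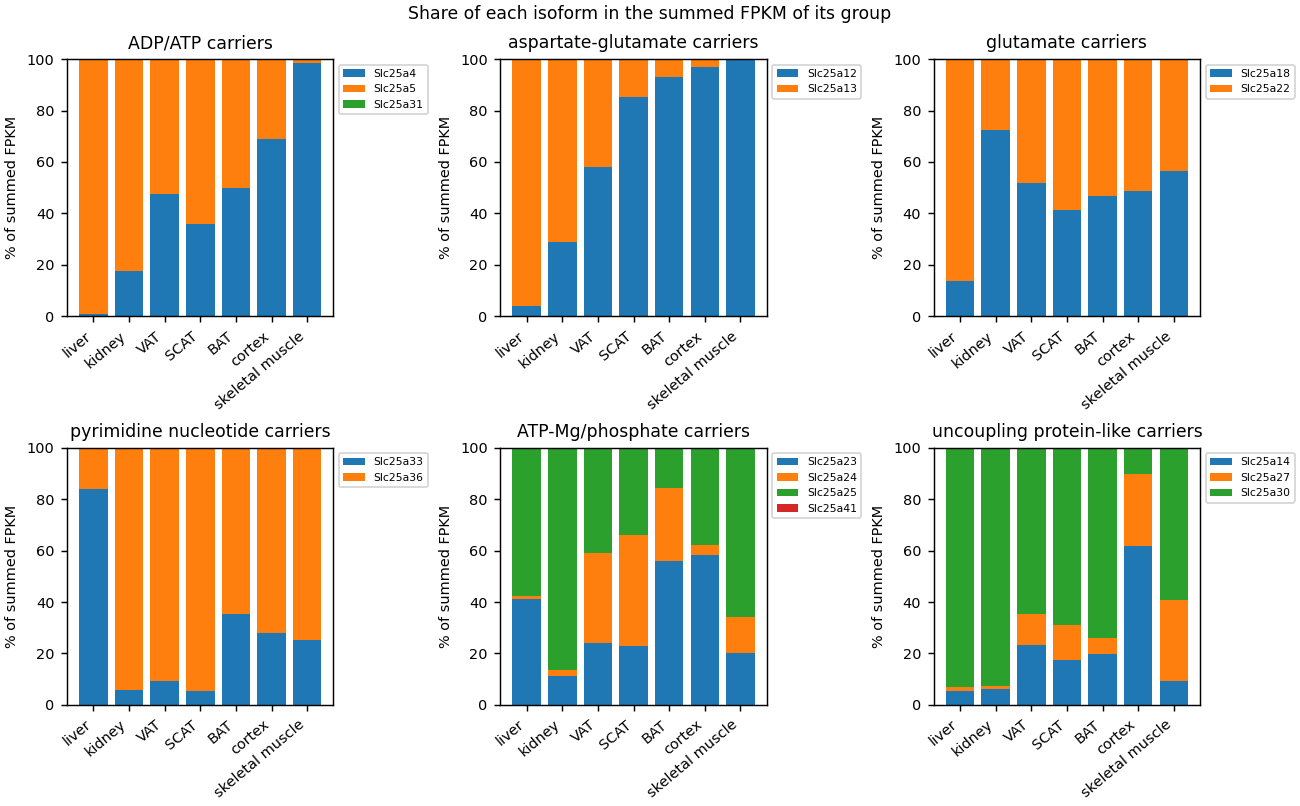
Share of each isoform in the summed FPKM of its group (vertical axis, percent) in 7 tissues (1 library each, 1 panel per group, colours as in each panel's key). Slc25a4 runs from 1.06% of ADP/ATP carrier FPKM in liver to 98.6% in skeletal muscle, and Slc25a12 from 4.17% to 99.6% of aspartate-glutamate carrier FPKM.

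The aspartate-glutamate carriers, the irreversible step of the malate-aspartate shuttle, were split in the same manner between liver and skeletal muscle. Slc25a12, also called aralar (chromosome 2, 71271063 to 71367749), was at 5.69 FPKM in liver, 14.9 in kidney, 3.89 in VAT, 3.89 in SCAT, 5.15 in BAT, 26.6 in cortex and 194 in skeletal muscle. Skeletal muscle was 7.30-fold above cortex, the second tissue. Slc25a13, or citrin (chromosome 6, 6041218 to 6217173), was at 131 FPKM in liver, 36.8 in kidney, 2.83 in VAT and between 0.377 and 0.813 in SCAT, BAT, cortex and skeletal muscle. Liver exceeded kidney 3.55-fold, and the 4 lowest libraries lay below 1 FPKM. In VAT, Slc25a13 stood at 2.17% of its liver level and Slc25a47 at 2.16%, where the liver genes Apoa1, Ttr, Cps1 and Otc stood at 0.701%, 0.850%, 0.874% and 0.998% of theirs; whether liver RNA entered that library was not tested. Slc25a12 made up 4.17% of the pair's FPKM in liver, 28.8% in kidney, 57.9% in VAT, 85.4% in SCAT, 93.2% in BAT, 97.0% in cortex and 99.6% in skeletal muscle. The fat depots expressed little of either, with pair sums of 5.52 FPKM in BAT, 6.72 in VAT and 4.55 in SCAT. Skeletal muscle held 195 FPKM for the pair. The enzymes of the shuttle were highest in skeletal muscle for 3 of 4 (Got1 at 87.6 FPKM, Got2 at 119 and Mdh2 at 113), while Mdh1 was highest in kidney (543 FPKM), and 0 of the 4 were enriched in a tissue.

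Slc25a15 exchanges ornithine for citrulline between matrix and cytosol, a step of the urea cycle. It was at 105 FPKM in liver, 39.4 in kidney, 3.01 in VAT, 1.32 in SCAT, 7.35 in BAT, 2.39 in cortex and 7.02 in skeletal muscle, and the second ornithine carrier, Slc25a2, never exceeded 1% of the pair's FPKM. The locus used for Slc25a15 was read as the strand opposite to the annotated gene, and the locus on the annotated strand was at 27.0 FPKM in liver and 10.8 in kidney. All 5 urea cycle genes were highest in liver, and 3 of 5 were enriched there, among them Cps1 (666 FPKM) and Otc (278 FPKM). Unlike Slc25a15, Cps1 and Otc were at 0.0880 and 0.0897 FPKM in kidney, where Ass1 was at 485 FPKM.

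The glutamate carriers Slc25a22 and Slc25a18 differed mainly in liver and kidney. Slc25a22 was at 67.7 FPKM in liver (86.1% of the pair), 7.84 in kidney (27.6%), 8.03 in VAT, 5.78 in SCAT, 29.1 in BAT, 29.1 in cortex and 10.5 in skeletal muscle. Slc25a18 ran from 4.09 FPKM in SCAT to 27.8 in cortex, with 20.6 in kidney. Outside liver and kidney neither gene held more than 58.6% of the pair. Of the 6 glutamate and GABA enzymes, Gad1 and Gad2, which make GABA, were enriched in cortex and the liver glutaminase Gls2 in liver (78.3 FPKM).

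Slc25a20 carries acylcarnitines into the matrix for fatty acid oxidation (chromosome 9, 108662088 to 108684641). It was at 85.7 FPKM in liver, 35.3 in kidney, 13.1 in VAT, 11.4 in SCAT, 348 in BAT, 2.52 in cortex and 67.7 in skeletal muscle. BAT stood 4.06-fold above liver, and cortex was the lowest library, at 0.723% of BAT. After rescaling the libraries by median ratios or upper quartiles the gap between BAT and liver was 1.82 or 1.98 on the log2 scale, below the threshold, and with all loci of a name summed it fell just short of 2. Of the carnitine acyltransferases, 3 of 4 were also highest in BAT: Cpt1b at 606 FPKM, Crat at 406 FPKM and Cpt2 at 89.4 FPKM. Cpt1a, the liver isoform, was highest in liver (109.6 FPKM). The locus of Cpt1b also carried Chkb and that of Cpt1a Mtl5, so these levels are uncertain.

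Slc25a38 and Slc25a44 were lower and more even. Slc25a38, which brings glycine into the matrix for heme synthesis, lay between 2.48 FPKM in VAT and 7.84 in skeletal muscle. Slc25a44, a carrier of branched-chain amino acids, lay between 1.10 FPKM in VAT and 4.34 in BAT, where it stood 2.04-fold above liver. Of the genes of branched-chain amino acid breakdown, 3 of 4 were likewise highest in BAT (Bcat2 at 19.5 FPKM, Bckdha at 275 and Bckdhb at 58.5), and Bcat1 was highest in kidney.

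Among carboxylate carriers, Slc25a1 exports citrate from the matrix for fatty acid synthesis. It was at 66.6 FPKM in liver, 45.6 in kidney, 24.6 in VAT, 15.6 in SCAT, 125 in BAT, 8.51 in cortex and 2.23 in skeletal muscle. BAT was 1.88-fold above liver, and skeletal muscle was the lowest of the 7. The 4 listed genes of fatty acid synthesis and NADPH supply, Acly (which cleaves citrate), Acaca, Fasn and Me1, were all highest in BAT as well, and Fasn (427 FPKM) and Acaca (229 FPKM) were enriched there. Slc25a10, the dicarboxylate carrier, was at 67.8 FPKM in liver and 109 in kidney, with 1.07 to 8.06 FPKM in the other 5 tissues. Slc25a11, the oxoglutarate carrier that completes the malate-aspartate shuttle, was at 359 FPKM in skeletal muscle and between 49.1 and 120.1 in the other 6, but its locus in the table also carried Camta2, Pfn1 and Spag7, so its level is uncertain. Slc25a21, the oxodicarboxylate carrier of lysine and tryptophan breakdown, was at 7.12 FPKM in liver and 6.98 in kidney and did not exceed 0.378 FPKM elsewhere.

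Liver and kidney were thus high together for 5 members, each at least 4-fold above the other 5 tissues in both: Slc25a10, Slc25a13, Slc25a15, Slc25a21 and Slc25a30 (11.9% of 42, background 1.5%). This pair rule was added after the values had been seen, so nothing is read from its standing among pairs. The other 20 pairs, each met by at most 0.844% of the background, had 0 members. The lower of the 2 tissues exceeded the highest of the other 5 by 18.5-fold for Slc25a21 (over a level below 1 FPKM, at unknown depth), 13.0-fold for Slc25a13, 8.42-fold for Slc25a10, 6.68-fold for Slc25a30 and 5.37-fold for Slc25a15.

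The cofactor carriers were the group most often highest in BAT, with 7 of 9 (background 15.1%). This group counts the pyrimidine nucleotide carriers Slc25a33 and Slc25a36. For 2 of the 7, Slc25a32 and Slc25a33, the locus on the opposite strand was slightly higher in liver than in BAT (3.83 beside 3.76 FPKM and 7.87 beside 7.85). Relative to genes of mitochondrial content, BAT was highest for 1 of these 9. That scaling lowers every gene most in BAT, and the share of background names under it was not computed. Slc25a51, the NAD+ carrier (chromosome 4, 45395923 to 45408766), was at 6.61 FPKM in liver, 15.2 in kidney, 6.87 in VAT, 4.66 in SCAT, 72.8 in BAT, 7.55 in cortex and 11.02 in skeletal muscle. BAT was 4.78-fold above kidney. These values come from a locus read as opposite to the annotated strand, and the locus on the annotated strand gave 61.3 FPKM in BAT and 3.14 to 11.3 in the other 6.

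Slc25a17, a peroxisomal carrier of CoA, FAD and NAD+, was at 75.3 FPKM in BAT, 46.2 in kidney and 6.52 to 16.8 in the other 5. Of the CoA carriers, Slc25a16 was highest in kidney (39.4 FPKM) and held 64.4% (BAT) to 91.0% (cortex) of the pair, while Slc25a42 was highest in BAT at 16.05 FPKM. Slc25a26, the S-adenosylmethionine carrier, was at 11.3 FPKM in BAT and 9.97 in skeletal muscle, and Slc25a32, the folate and FAD carrier, at 5.97 FPKM in BAT and 4.55 in liver. The pyrimidine nucleotide carriers switched between liver and kidney. Slc25a33 held 83.8% of the pair in liver (7.06 FPKM) and 5.91% in kidney (1.58 FPKM), and Slc25a36 was at 1.36 FPKM in liver and 25.1 in kidney. Liver was the single library in which Slc25a36 was the lower of the 2, and the other 6 libraries held it at 8.70 FPKM or more.

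Slc25a39 imports glutathione, and with Slc25a40 forms a pair in which it held 82.3% (cortex) to 99.4% (liver) of the FPKM. It was at 177 FPKM in liver, 174 in kidney, 25.4 in VAT, 12.2 in SCAT, 182 in BAT, 10.8 in cortex and 34.0 in skeletal muscle. Liver, kidney and BAT were nearly level, and the next library was skeletal muscle. The mitoferrins, which import iron for heme and iron-sulfur clusters, were even: Slc25a37 lay between 2.25 FPKM in cortex and 7.91 in liver, and Slc25a28 between 3.30 in liver and 9.60 in skeletal muscle. Slc25a37 held 70.6% of the pair in liver and 32.9% to 52.3% elsewhere. Both were taken from loci read as opposite to the annotated strand. The loci on the annotated strand gave 0.262 to 0.712 FPKM for Slc25a37 and 2.22 to 7.83 for Slc25a28, with Slc25a28 higher in all 7 tissues, so the shares depend on this choice. Further, 3 genes of erythroid cells, where Slc25a37 is known to act, summed to between 87.6 FPKM in cortex and 1238 in VAT. Their part in the mitoferrin levels was not tested. The heme enzymes Alas1 (504 FPKM) and Alas2 (28.6 FPKM) were highest in liver, and 0 of the 5 genes of heme and iron-sulfur synthesis were enriched in a tissue.

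Of the 3 uncoupling protein-like carriers, Slc25a30 was at 42.7 FPKM in kidney and 36.0 in liver and held over 92% of the group in each. Slc25a14 was highest in cortex (10.4 FPKM, 61.9% of the group), at 0.833 to 2.84 in the other 6, and Slc25a27 was highest in cortex (4.69 FPKM) and skeletal muscle (2.86 FPKM). Slc25a27 was read from a locus opposite to the annotated strand, and the annotated one gave 2.53 FPKM in cortex and 1.01 in skeletal muscle. The uncoupling proteins named Ucp differed from the uncoupling protein-like carriers: Ucp1, which uncouples respiration in brown fat, was at 6552 FPKM in BAT, Ucp3 at 64.1 FPKM in skeletal muscle and 25.2 in BAT, and Ucp2 between 2.21 and 23.9 FPKM. Of the relatives Mtch1 and Mtch2, Mtch2 was highest in BAT at 401 FPKM and Mtch1 in cortex at 87.4 FPKM.

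Members without a settled substrate included the clearest liver and cortex genes. Slc25a47 (chromosome 12, 108836046 to 108856815) was at 151 FPKM in liver, 0.776 in kidney, 3.25 in VAT, 0.871 in SCAT, 1.84 in BAT, 1.26 in cortex and 2.13 in skeletal muscle. Liver was 46.4-fold above VAT, but the locus also carried Wdr25, so low levels may belong to either name. Slc25a53 (chromosome X, 136981116 to 137038302) was at 41.1 FPKM in cortex and 0.779 to 1.90 in the other 6, a 21.7-fold gap. Zcchc18, on the other strand of the same region and named after its values were seen, was at 11.6 FPKM in cortex and at most 0.618 elsewhere, and reads shared between the 2 strands were not tested. Slc25a46, an outer membrane protein of mitochondrial division, was highest in BAT (14.4 FPKM) and skeletal muscle (10.4 FPKM). Slc25a34 (7.93 FPKM) and Slc25a35 (5.36 FPKM) were also highest in BAT. Slc25a45 (6.94 FPKM) and Slc25a48 (5.54 FPKM) were highest in kidney, with liver next for Slc25a45 and BAT for Slc25a48. The level of Slc25a48 is from a locus read as opposite to the annotated strand, and the annotated one gave 2.32 FPKM in kidney. Slc25a54, at up to 2.43 FPKM in VAT, was read only from a locus shared with Slc25a24.

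Brown fat, which oxidises fuel to make heat, was set beside the white depots, which store lipid. At least 1 FPKM in BAT and 2-fold over both VAT and SCAT was found for 23 of the 40 members with 1 FPKM in any fat depot (57.5%), beside 25.4% of 12561 background names. Of these, 15 stood at least 4-fold above both depots (37.5%, background 8.72%). The median gap between BAT and the higher white depot was 1.61 for members and 0.29 for the background on the log2(FPKM + 0.1) scale. As ratios of FPKM, large gaps were 84.8-fold for Slc25a34 (7.93 FPKM in BAT, 0.0936 in VAT and 0.0762 in SCAT), 26.6-fold for Slc25a20, 15.5-fold for Slc25a42, 13.8-fold for Slc25a48, 10.6-fold for Slc25a51, 8.38-fold for Slc25a33, 7.33-fold for Slc25a17 and 7.17-fold for Slc25a39. Slc25a34 and Slc25a48 were below 1 FPKM in both white depots, so their ratios rest on very low values, and the gap of Slc25a34 was 5.37 on the log2(FPKM + 0.1) scale. BAT was below both depots for 4 members, Slc25a13, Slc25a25, Slc25a37 and Slc25a45 (4 of 40, background 22.2%). Ckm in BAT was at 1.93% of its level in skeletal muscle (166 beside 8592 FPKM), where Slc25a4 in BAT was at 9.86% and Slc25a12 at 2.65% of theirs. The part of muscle RNA in the brown fat levels was not tested.

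**Figure D3:**
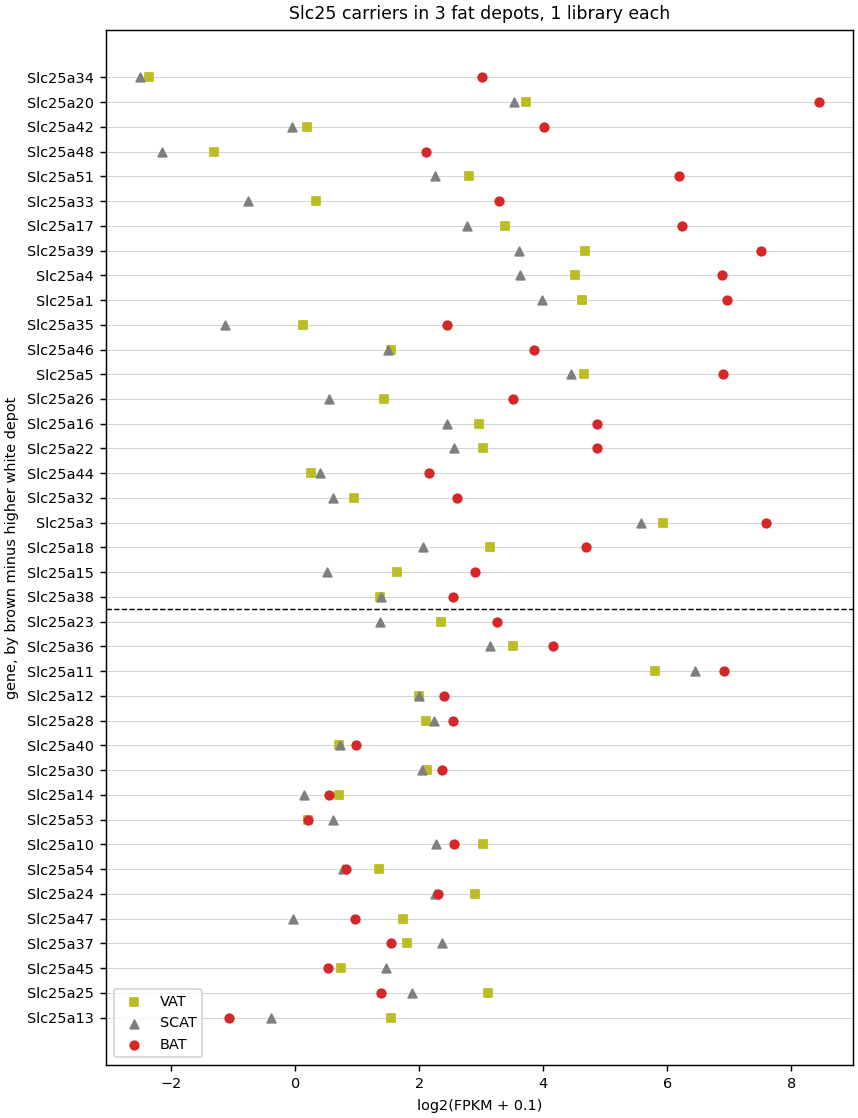
Level of 39 members, as log2(FPKM + 0.1) on the horizontal axis, in BAT (red circles), VAT (olive squares) and SCAT (grey triangles), 1 library each, ordered by the gap between BAT and the higher white depot. The 22 genes above the dashed line stand at least 2-fold higher in BAT than in both white depots, led by Slc25a34 and Slc25a20.

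The machinery that imports carriers into the inner membrane, and other transport proteins of mitochondria, were higher in BAT than in both white depots by the same rule for 6 of 7 and 7 of 8 genes (background 25.4%). The rule was also met by 11 of 11 citric acid cycle and respiratory chain genes, so these counts are not particular to import or transport. Timm10, a chaperone of carrier import, was at 25.9 FPKM in BAT and 2.86 in VAT. The pyruvate carrier subunits Mpc1 and Mpc2 were at 683 and 432 FPKM in BAT and at 66.2 and 45.9 in VAT. The outer membrane channels Vdac1, Vdac2 and Vdac3 were all highest in skeletal muscle (558, 252 and 290.0 FPKM).

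Because tissues differ in mitochondria, members were also set beside 11 citric acid cycle and respiratory chain genes, taken as a measure of mitochondrial content. The median of these genes was 28.1 FPKM in SCAT, 37.5 in VAT, 54.5 in cortex, 103 in liver, 141 in kidney, 477 in skeletal muscle and 527 in BAT, 18.6-fold higher in BAT and 16.9-fold higher in skeletal muscle than in SCAT. Setting members beside this median subtracts 1 log2 value per library from every gene: 9.04 in BAT, 8.90 in skeletal muscle and 4.82 in SCAT. Shares of background names relative to content were not computed, so the counts below are not read as particular to carriers. Relative to this median, 1 member, Slc25a34, was still 2-fold higher in BAT than in both white depots, and 0 were enriched in BAT or skeletal muscle. Liver then had Slc25a13 and Slc25a47, and cortex Slc25a14 and Slc25a53. The highest tissue relative to content was BAT for 1 of 42 members, where it had been for 14 by FPKM. The lowest was skeletal muscle for 21 members and BAT for 16 of 42, the libraries with the largest value subtracted. The gap of the enriched tissue over the next became, among others, 0.91 for Slc25a4, -0.27 for Slc25a12, -0.33 for Slc25a20 and -0.42 for Slc25a51 on the log2 scale.

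Slc25a3 moved largely with the content genes outside BAT: relative to them it was between 0.45 and 0.75 on the log2 scale in 6 tissues and at -1.45 in BAT. Slc25a5 was at 0.45 in kidney, -2.15 in BAT and -4.85 in skeletal muscle. Slc25a4 was at -6.24 in liver, -2.16 in BAT and 1.33 in skeletal muscle. Slc25a20 was at -0.27 in liver, -0.60 in BAT, -2.82 in skeletal muscle and -4.38 in cortex. For 13 of 42 members the range over tissues was narrower relative to content than in FPKM, and for the others it was as wide or wider. Relative to content, Slc25a4 and Slc25a3 were thus lower in BAT than in skeletal muscle, and Slc25a5 and Slc25a20 higher.

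**Figure D4:**
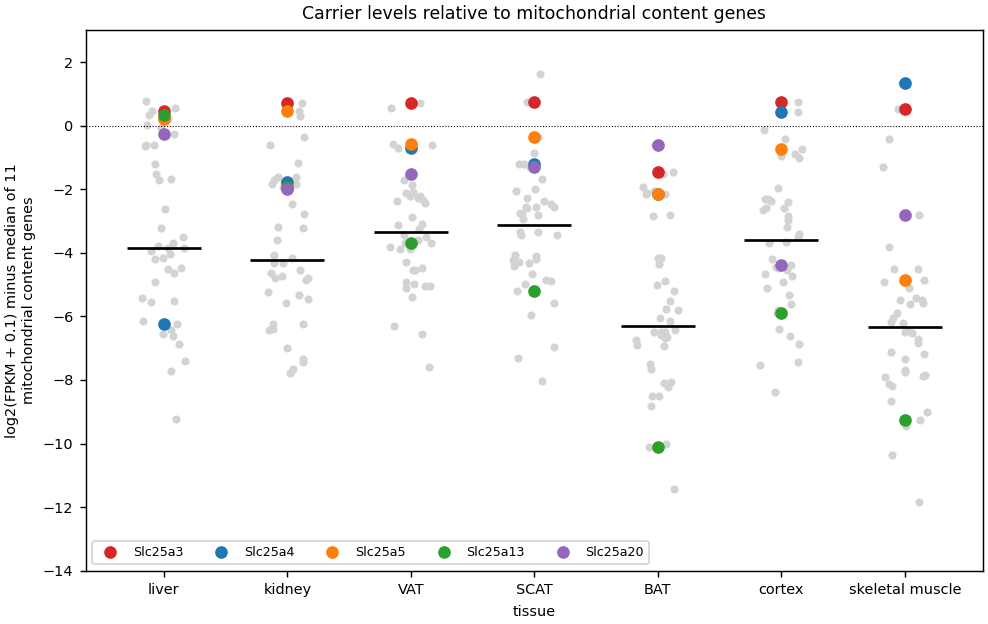
Level of 42 members relative to the median of 11 mitochondrial content genes, as a difference of log2(FPKM + 0.1) values (vertical axis), in 7 tissues (1 library each), with grey points for members, black lines for their medians and 5 carriers in colour. The medians are lowest in skeletal muscle (-6.33) and BAT (-6.29) and highest in SCAT (-3.13), and Slc25a3 lies above 0 in every tissue but BAT. The median of the content genes themselves is highest in BAT and skeletal muscle and lowest in SCAT.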

How the data were processed

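RNA was measured in 7 tissues with 1 library each. According to the paper's methods and the processing notes, the authors trimmed reads, removed rRNA reads with Bowtie2 2.2.9, aligned the rest to GRCm38 (mm10) with STAR 2.6.0c, assembled and merged transcripts with Cufflinks 2.2.1 and compared tissues with cuffdiff. The values the authors deposited are FPKM per locus and tissue, in 21 pairwise comparisons. Columns of the authors' fold changes, test statistics and p-values were not used. Libraries were grouped by tissue label. The table gives no fragment counts, so depth and the precision it gives are unknown. The kit was directional, but cuffdiff's library type is not given in the sources used here, so counts on the 2 strands may share reads.

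For a name at several loci, the locus with the highest maximum FPKM was used. Of 94339 loci, 151 with status FAIL were dropped, and LOWDATA zeros were taken as missing. Biotype, position and annotated strand came from GENCODE (GRCm38). The strand of a locus was read from the order of loci within a chromosome. Log2 values carry a pseudocount of 0.1, which understates the change of low genes. Members could be named, except that the values of 1 member and of 1 listed gene are not reported here or plotted by name, although counts include them. Other genes came from lists that, like the members, were chosen with earlier results of these data known. No test was possible, and all counts follow fixed rules (4-fold, 2-fold in fat, at least 1 FPKM). Simulated data were run through the rules for enriched and low genes alone, which says nothing of how the rules behave on these libraries. Promoter windows came from RefSeq (GRCm38.p6). Protein features were not analysed here. Alternatives changed the pseudocount, minimum, fold, scaling, loci and tissues used. Python 3.11.15, pandas 2.3.3, NumPy 2.4.6 and matplotlib 3.10.9 were used.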

Additional observations from a re-analysis of the deposited data

How the results depend on the processing

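No paired analysis was possible because each tissue was sequenced as a single library. Of 163 counts recomputed under an alternative, 45 compare 0 with 0 (kidney, VAT and SCAT) and say nothing of stability, and 93 of the other 118 stayed within 1.5 times the reported one, and of 80 log2 ratios of enriched members 72 stayed at 2 or more. The 7 enriched members became 16 with a 2-fold rule, 4 with an 8-fold rule, 14 without kidney, 4 relative to mitochondrial content and 4 without BAT, an alternative that was chosen after seeing the data and leaves no BAT gene to call. In liver (1 reported) the count was 5 with a 2-fold rule, 0 without loci that carry several names, 6 without kidney and 2 relative to content. In BAT (3) it was 5 with 2-fold, 1 with 8-fold and 0 relative to content. In cortex (1) it was 2 with median ratio scaling, with 2-fold, without kidney and relative to content. In skeletal muscle (2) it was 4 with 2-fold, 1 with 8-fold and 0 relative to content. Low members (3) were 7 with 2-fold, 1 with 8-fold and 7 relative to content. Members in all 7 tissues (28) were 7 with a minimum of 5 FPKM. Members higher in brown fat (23) were 17 with median ratio or upper quartile scaling, 15 with 4-fold and 1 relative to content. The log2 ratio reversed for 3 members, all relative to content: Slc25a12 (-0.27), Slc25a20 (-0.33) and Slc25a51 (-0.42). That setting subtracts 1 value per library from all genes alike, most in BAT and skeletal muscle, so it moves counts and ratios of any gene. Background shares relative to content were not computed. The ratio stayed positive but below 2 for Slc25a20 under median ratio scaling, upper quartile scaling and summed loci, and relative to content for Slc25a4, among others. Median ratio scaling shifts libraries by -0.39 (skeletal muscle) to 0.52 (SCAT) on the log2 scale. All 14 recomputed shares of Slc25a4 stayed within 1.5 times. With unknown depth, ratios over a level below 1 FPKM are imprecise.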

Other observations

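Many carriers appeared in the table at a locus on each strand. This held for 21 members when loci with several names were counted, and for 19 by loci with their name alone. For 15 of those 19 both loci were highest in the same tissue. The locus opposite to the annotated gene was at 35.8% to 44.3% of the annotated one for Slc25a4 and at 83.8% to 91.0% for Slc25a5 over the 7 tissues. For Slc25a51 it was at 119% to 156%, and for Slc25a20 at 8.75% to 16.6%. In 8 members the opposite locus had the higher maximum and gave the levels reported: Slc25a15, Slc25a24, Slc25a27, Slc25a28, Slc25a37, Slc25a44, Slc25a48 and Slc25a51. With loci of the annotated strand alone, a choice added after seeing the data, 7 members were again enriched, 23 were again higher in brown fat and 25 reached 1 FPKM in all 7 tissues.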
